A study of Caenorhabditis elegans with 2 samples.

Results

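The genes described here encode splicing and RNA-binding factors of the nematode Caenorhabditis elegans, and the measurement was occupancy of their promoters by TBX-37, a T-box transcription factor of early embryos. They were taken as every protein-coding gene of the Ensembl WBcel235 annotation whose symbol starts with snr-, rsp-, prp-, uaf-, rnp-, hrp- or hrpa-, which gave 41 of 19973 nuclear protein-coding genes. For short they are called splicing factor genes below, though the symbols also take in RNA-binding proteins with other roles, such as rnp-8. The families were 13 PRP factors, 9 RNP proteins, 8 SR proteins, 7 Sm proteins, 2 U2AF subunits and 2 hnRNP A proteins. Chromatin immunoprecipitation with sequencing was done with an anti-GFP antibody on strain RW12282, in which CRISPR had inserted a TY1::EGFP::3xFLAG tag at the endogenous tbx-37 gene. Whole early embryos at 0 hours, obtained by egg bleaching, formed 1 group of 2 biological replicates of that 1 strain, so there was no contrast between conditions. Whole embryos mix many lineages, and strong occupancy in few cells cannot be told apart from weak occupancy in many. Read counts are not part of the deposited peak lists, and sequencing depth is therefore unknown for both replicates.

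Splicing removes introns from precursor RNA and is carried out by the spliceosome, which is assembled from small nuclear RNAs and their proteins. Sm proteins form the ring on most of these RNAs, PRP factors build, activate and remodel the complex, and SR proteins, U2AF and hnRNP A proteins bind the precursor RNA and guide the choice of splice sites. In this nematode most messages also receive a spliced leader at their first exon, and many genes lie in operons whose downstream genes have no promoter of their own, so an annotated gene start need not be where transcription begins.

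A gene was counted as called when a peak summit of the authors' conservative list, which compares both replicates and holds 1107 peaks, lay from 1000 bp upstream to 200 bp downstream of its start. By this count 8 of the 41 splicing factor genes (19.5%, exact 95% interval 8.82 to 34.9%) were called, against 820 of all 19973 genes (4.11%). In the other series-wide list of the authors 5 of the 41 (12.2%) were called, against 3.91% of all genes. In the list made from replicate 1 alone 2 of the 41 (4.88%) were called, against 1.94% of all genes, and in that of replicate 2 alone 4 of the 41 (9.76%), against 3.05%. The share among the 41 was above that of all genes in each list, and the lower end of its interval fell below the share of all genes in both lists of the single replicates (0.596% and 2.72%). In the other series-wide list the lower end was 4.08%, close to the 3.91% of all genes. The intervals take genes as independent, although 1 peak can count for 2 genes. No test was made of these shares, since the genes were chosen with earlier results of these data known. By family, 3 of 13 PRP factors, 2 of 7 Sm proteins, 2 of 8 SR proteins, 1 of 9 RNP proteins, and neither the 2 U2AF subunits nor the 2 hnRNP A proteins were called in the conservative list.

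**Figure D1:**
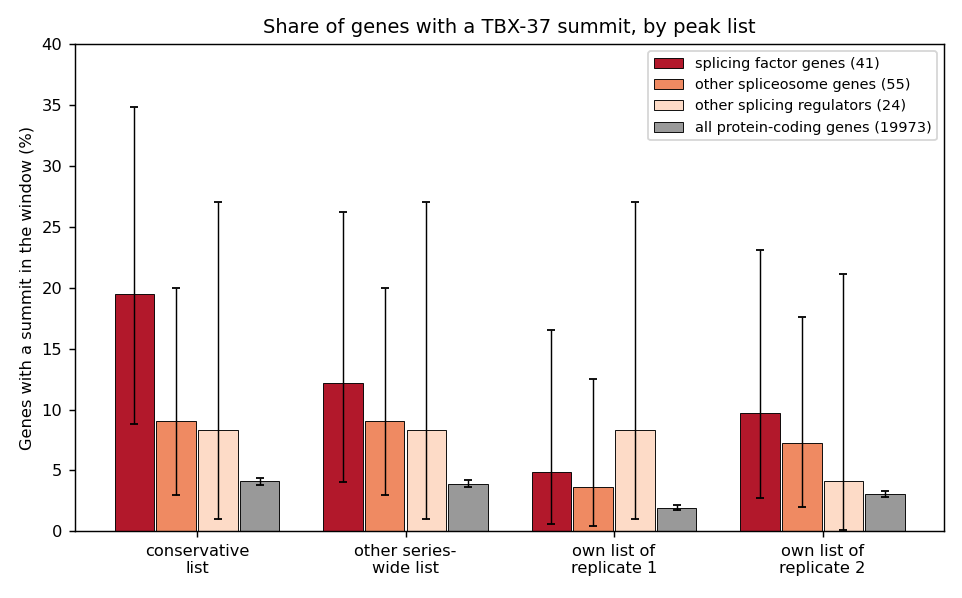
The share of genes with a peak summit in the promoter window (%) is drawn for the 4 lists of the authors that apply a threshold, for the 41 splicing factor genes, 55 other spliceosome genes, 24 other splicing regulators and all 19973 protein-coding genes, with exact 95% intervals that cover counting error only. The bar of the 41 genes is at 19.5% in the conservative list and at 4.88% in the list of replicate 1, where the interval spans the share of all genes.

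Among the Sm proteins, the genes for SmD3 (snr-1) and SmB (snr-2) were called. The signal value is the authors' own measure of a peak's strength and is compared only within a list. The irreproducible discovery rate (IDR), given here in its global form, estimates the share of irreproducible peaks among those ranked as high or higher. Its threshold was near 0.01, and in a list made from 1 replicate it does not compare the 2 replicates. The peak of snr-1 at IV:17087503-17087758 had a signal value of 152 and an IDR of 0.000167, with its summit 418 bp upstream of the snr-1 start and 193 bp upstream of snx-13, a sorting nexin gene on the opposite strand. In the ranked lists of the single replicates the strongest snr-1 candidate had signal values of 75.5 in replicate 1 and 72.1 in replicate 2, and both replicates' own lists held it. The peak of snr-2 at I:13338898-13339153 had a signal value of 87.7 and an IDR of 0.00195, with 31.6 in replicate 1 and 55.8 in replicate 2. Its summit lay 371 bp upstream of snr-2 and only 95 bp upstream of W08E3.4 on the other strand, and neither replicate's own list held it. The snr-2 candidate had an IDR of 0.898 in the ranked list of replicate 1 and 0.115 in that of replicate 2.

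Of the PRP factors, the strongest peak of all 41 genes stood upstream of prp-19, which encodes the ubiquitin ligase at the core of the Prp19 complex that activates the spliceosome. With a signal value of 293 and an IDR of 1e-05, the smallest the lists hold, that peak covered III:5172623-5172755 and ranked 33 among all genes by strongest candidate. Replicate 1 gave it 124 and replicate 2 gave it 175, and it was called in both replicates' own lists. Its summit was 643 bp from the prp-19 start but 32 bp upstream of K10D2.5 and 751 bp upstream of emb-1, an anaphase-promoting complex gene, so prp-19 was not the nearest gene. The peak of prp-8, the U5 factor at the catalytic centre of the spliceosome, covered III:8163952-8164207 with a signal value of 100.4 and an IDR of 0.000692, with 40.6 in replicate 1 and 59.5 in replicate 2. Here the summit was 293 bp upstream of prp-8 and 697 bp upstream of bath-42, a gene of the BTB and MATH domain family. The list of replicate 2 held the prp-8 peak and that of replicate 1 did not, where its IDR was 0.0103. The peak of prp-40, a U1-associated factor that helps to bridge both ends of an intron, covered III:9521753-9522008 with a signal value of 70.7 and an IDR of 0.0082, with 33.4 in replicate 1 and 35.7 in replicate 2. It lay 194 bp upstream of prp-40 and 421 bp upstream of clu-1, in neither replicate's own list. The prp-40 candidate had an IDR of 0.0355 in replicate 1 and 0.473 in replicate 2.

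The remaining peaks belonged to rnp-2 and to the pair rsp-1 and rsp-2. The gene rnp-2 encodes the A-type protein of the U1 particle. Its peak at IV:4171826-4172081 had a signal value of 82.5 and an IDR of 0.00494, with 26.7 in replicate 1 and 55.4 in replicate 2, and its summit lay 122 bp upstream of rnp-2 and 373 bp upstream of K08D10.13. The SR protein genes rsp-1 and rsp-2 start 407 bp apart on opposite strands and share 1 peak at II:11453126-11453381, so the 8 called genes rest on 7 peaks. That shared peak had a signal value of 66.3 and an IDR of 0.00345, with 30.8 in replicate 1 and 43.9 in replicate 2, and its summit was 108 bp upstream of rsp-1 and 299 bp upstream of rsp-2. Neither the rnp-2 peak nor the shared peak was in a replicate's own list. In replicate 1 the IDR was 0.858 for rnp-2 and 0.913 for the shared candidate, far from the threshold. In replicate 2 it was 0.0155 and 0.127. The other series-wide list held the peaks of prp-19, snr-1, prp-8 and rnp-2 and left out those of snr-2, prp-40 and the rsp-1 and rsp-2 pair. In the ranked list behind it the IDR was 0.385 at snr-2, 0.0119 at prp-40 and 0.625 at the pair.

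**Figure D2:**
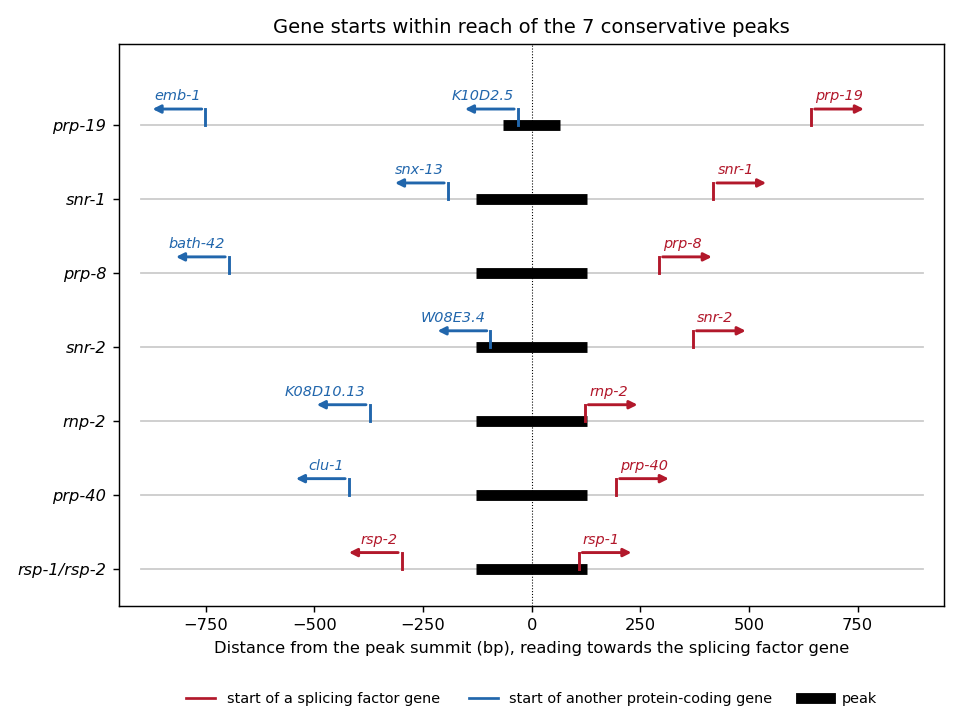
Distances (bp) from the summit of each of the 7 conservative peaks to the gene starts within reach are drawn in the direction of the splicing factor gene, with the peak as a black bar. Each peak has a splicing factor start on the right and a start on the opposite strand on the left, from 32 bp (K10D2.5) to 697 bp (bath-42) away from the summit for the nearest of these, and for rsp-1 both starts are splicing factor genes.

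The sequences under 5 of these 7 peaks are shown because 4 of the 7 share a word. The windows reach 100 bp to each side of the summit, are written 5′ to 3′ on the strand of the splicing factor gene, and come from the RefSeq genome of build WBcel235, which is ce11. Capitals mark the word CGCNCCAC, on either strand, where N is any base. The prp-19 window (III:5172588-5172719, minus strand) is cut short at its 5′ end, where an exon of K10D2.5 lies, and the others are snr-1 (IV:17087531-17087731), prp-8 (III:8163980-8164180), rnp-2 (IV:4171854-4172054) and rsp-1 (II:11453154-11453354), all on the plus strand.
prp-19: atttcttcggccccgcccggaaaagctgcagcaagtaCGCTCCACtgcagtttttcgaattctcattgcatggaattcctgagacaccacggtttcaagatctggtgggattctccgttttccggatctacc
snr-1: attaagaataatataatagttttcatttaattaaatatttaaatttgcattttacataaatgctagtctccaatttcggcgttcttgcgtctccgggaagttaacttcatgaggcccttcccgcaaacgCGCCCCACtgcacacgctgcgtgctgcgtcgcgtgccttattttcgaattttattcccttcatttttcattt
prp-8: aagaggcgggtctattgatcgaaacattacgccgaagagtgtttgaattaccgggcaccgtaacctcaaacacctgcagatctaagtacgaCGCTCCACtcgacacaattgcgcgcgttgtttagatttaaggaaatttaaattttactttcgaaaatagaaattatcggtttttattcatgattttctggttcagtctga
rnp-2: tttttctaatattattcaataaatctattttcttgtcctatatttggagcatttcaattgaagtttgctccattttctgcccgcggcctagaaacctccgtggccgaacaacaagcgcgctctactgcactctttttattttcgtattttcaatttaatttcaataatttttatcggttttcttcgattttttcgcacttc
rsp-1: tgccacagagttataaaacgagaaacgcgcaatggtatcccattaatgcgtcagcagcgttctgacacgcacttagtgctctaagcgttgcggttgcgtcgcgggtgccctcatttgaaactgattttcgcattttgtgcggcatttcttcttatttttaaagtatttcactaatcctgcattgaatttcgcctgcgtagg
The centre of the word was 5 bp from the summit at prp-8, 9 bp at prp-19, 33 bp at snr-1 and 52 bp at prp-40. The rnp-2 window holds the close relative CGCTCTAC 21 bp from its summit, and the rsp-1 window holds neither form.

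CGCNCCAC was read from these windows after they had been seen, so its 4 of 7 is a description of how it was chosen. Within 100 bp of the summit the word stood in 30 of the 580 other conservative peaks in promoter windows (5.17%) and in 7 of the 520 conservative peaks outside them (1.35%). It stood in 4 of 1160 flanking windows centred 500 bp from the summits of those promoter peaks (0.345%), and in 222 of 19973 windows of the same length centred 200 bp upstream of all protein-coding starts (1.11%). Among uncalled splicing factor genes, 3 of 22 strongest candidates held it (13.6%, at rnp-6, rsp-8 and prp-21), against 154 of 9456 strongest candidates of other uncalled genes (1.63%). At rsp-8 the word lay 7 bp from the summit, in a window shown for that reason (III:11825732-11825932, plus strand).
rsp-8: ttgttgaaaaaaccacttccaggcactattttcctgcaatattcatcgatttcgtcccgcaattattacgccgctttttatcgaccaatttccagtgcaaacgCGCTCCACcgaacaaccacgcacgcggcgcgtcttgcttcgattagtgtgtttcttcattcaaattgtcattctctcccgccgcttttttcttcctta
It lay 7 bp from the summit at rnp-6 too and 86 bp away at prp-21. The looser CGCNCNAC was chosen to take in the rnp-2 form too, which fixes its 5 of 7, and it stood in 12.1% of the other promoter peaks and 3.00% of the upstream windows.

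Fixed motifs were counted in the same 7 windows, which are too few to set a count of 0 or 1 apart from the shares beside it. GAGAGA stood in 0 of 7, against 25.7% of all conservative peaks, 24.2% of those in promoter windows and 14.2% of the upstream windows. GGGCGG stood in 1 of 7, at prp-19, against 12.1% of all conservative peaks, 12.9% of promoter peaks and 4.67% of upstream windows. The T-box word AGGTGTGA stood in 0 of 7, against 0.361% of all conservative peaks and 0.516% of upstream windows. The shorter GGTGTG, which lies inside it, stood in 0 of 7 too, against 7.14% of all conservative peaks and 5.39% of upstream windows. Both strands were searched, and no match says only that these letters are not in a window. The median GC content of the windows was 44.3% at the called splicing factor genes, 44.3% at all conservative peaks, 42.3% at all promoter peaks and 33.8% in upstream windows.

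Below the threshold, the strongest candidates belonged to snr-4 and rsp-6. The gene snr-4, for SmD2, had a candidate 336 bp upstream with a signal value of 94.1, above that of 4 called peaks, and an IDR of 0.0157. It reached 74.8 in replicate 2 but 23.7 in replicate 1, and the list of replicate 2 and the other series-wide list called it. The small nuclear RNA gene T11F9.15 lies within 100 bp of that summit, and its part in the signal was not tested. The SR protein gene rsp-6 was just outside the threshold, with an IDR of 0.0104, a signal value of 68.1 and 25.6 in replicate 1 against 43.1 in replicate 2, while prp-40 with 0.0082 was just inside it. The gene rnp-6, for a PUF60-type factor that acts beside U2AF, had 66.0 (IDR 0.0718), with 21.0 in replicate 1 and 40.4 in replicate 2, 12 bp from the start of rde-10. The candidate of rsp-8, for a Tra2-like SR protein, had 57.4 (IDR 0.0808), with 36.1 in replicate 2 and no candidate in replicate 1. In replicate 1 snr-4, rsp-6 and rnp-6 had 21.0 to 25.6 and rsp-8 had no candidate, while the called genes had 26.7 to 124, and the call itself compares both replicates.

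Lower values followed at rsp-7 (47.8), the splicing factor 3a gene prp-21 (47.0), rnp-8 (42.3), whose product partners the poly(A) polymerase GLD-2, and the hnRNP A1 gene hrpa-1 (42.1). Their IDR ran from 0.378 at rnp-8 to 0.748 at prp-21. At these 4 genes the single replicates gave 13.0 to 23.6 in replicate 1 and 20.8 to 27.3 in replicate 2. A further 15 genes had candidates from 11.7 to 38.6, which include the remaining Sm genes snr-6 (SmE, 35.7), snr-5 (SmF, 35.1) and snr-3 (SmD1, 28.5), with snr-3 and the divergent rsp-5 sharing 1 candidate. They also include the second-step factor gene prp-17 (34.7), the U4/U6 factor genes prp-31 (31.8), prp-3 (24.3) and prp-4 (18.5), the U2AF large subunit gene uaf-1 (25.5) and the U1-70K gene rnp-7 (20.5). The others in this range were rnp-9 (38.6), hrpa-2 (35.8), prp-38 (25.3), rnp-3 (16.5) and rnp-1 (11.7).

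No candidate lay in the windows of 10 genes in the ranked list behind the conservative list, namely prp-6, prp-9, prp-18, prp-39, rnp-4, rnp-5, rsp-3, rsp-4, snr-7 and uaf-2. Of these, the small U2AF subunit gene uaf-2 had a candidate of 35.9 in the ranked list of replicate 2, and rsp-3, for the SF2/ASF protein, had one of 33.4 there, with no candidate in replicate 1 for either. In the ranked list behind the other series-wide list uaf-2 had a candidate of 47.7, rsp-3 one of 31.6 and rnp-5 one of 31.1. The exon junction complex genes rnp-4 (Y14) and rnp-5 (RNPS1) had 26.2 and 26.9 in replicate 2, prp-18 had 26.4 and snr-7, for SmG, had 24.8, and only rnp-5 also had a candidate in replicate 1 (14.5). For prp-6, prp-9, prp-39 and rsp-4 no ranked list of the series or the replicates held a candidate in the window. A conservative summit lay 1292 bp upstream of rsp-4, past the window's edge.

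Candidates of any strength were common at all genes. They lay at 31 of the 41 splicing factor genes (75.6%), against 11326 of all genes (56.7%). Over those with a candidate, the median signal value was 42.1 for the splicing factor genes (quartiles 28.5 and 67.2) and 32.1 for all genes (quartiles 23.8 and 42.8). Of the 31, 14 were above the upper quartile of all genes, 21 above their median and 4 at or below their lower quartile. Medians by family were 61.8 for SR proteins (6 genes with a candidate), 61.7 for Sm proteins (6), 38.9 for hnRNP A proteins (2), 38.6 for RNP proteins (7) 34.7 for PRP factors (9) and 25.5 for U2AF (1), so the PRP family held the highest value beside a median under that of the 41. The called splicing factor genes had a median of 85.1 (range 66.3 to 293), against 109 for all 820 called genes. In the ranked lists of the replicates the medians were 21.0 for 24 splicing factor genes and 16.6 for all genes in replicate 1, and 27.4 for 29 splicing factor genes and 23.6 for all genes in replicate 2.

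**Figure D3:**
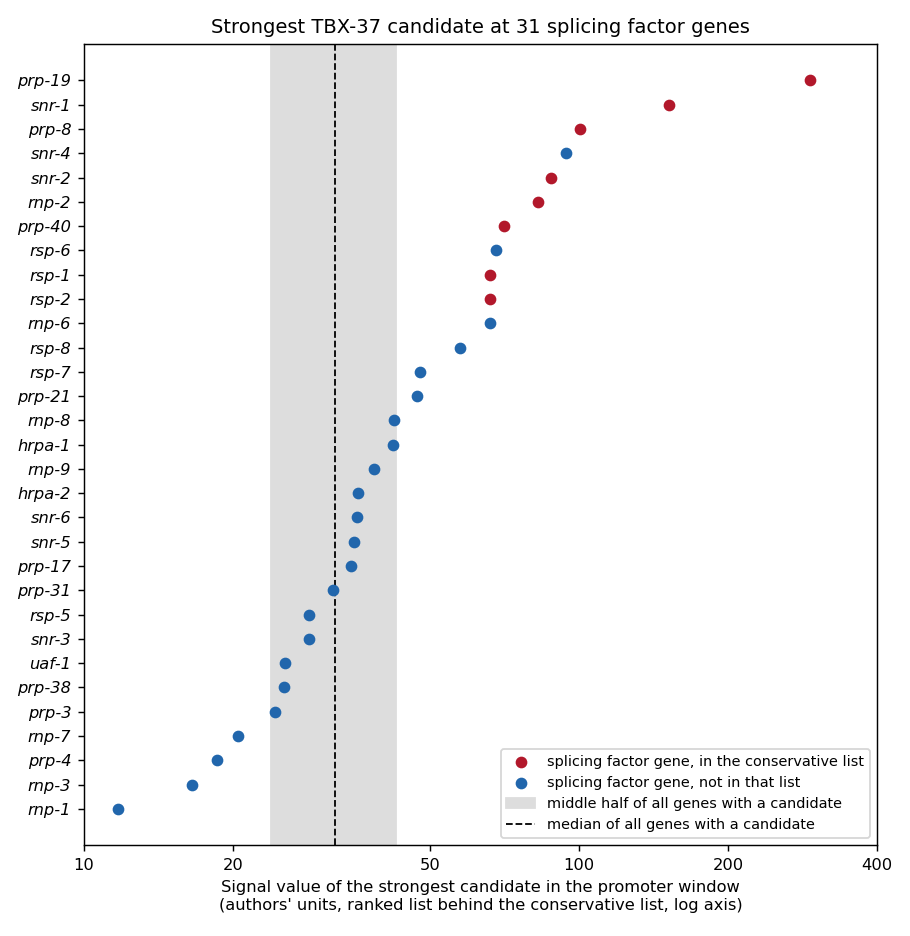
The signal value of the strongest candidate in the promoter window (log axis, authors' units) is drawn for the 31 splicing factor genes that have one, with the median of all genes with a candidate as a dashed line at 32.1 and their quartiles as a grey band. The called genes lie between 66.3 and 293, and snr-4 and rsp-6 lie among them without passing the IDR threshold.

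The replicates could be set side by side at 19 splicing factor genes with a candidate in both, while 5 had one in replicate 1 alone, 10 in replicate 2 alone and 7 in neither. Over these 19 genes Spearman's rho between the log2 signal values was 0.747 and Pearson's r was 0.846, against 0.492 and 0.685 over 5290 of all genes. The summits of the replicates lay within 100 bp of each other at 15 of the 19 genes, against 2731 of the 5290. Over those alone rho was 0.746 and r was 0.859 for the splicing factor genes, against 0.678 and 0.787 for all genes. The points are genes in the same 2 libraries, rsp-1 and rsp-2 share a candidate, and prp-19 lies far from the rest, so these are descriptions. The call itself compares both replicates, so called and uncalled genes were not grouped independently of how well the replicates match. At the 8 called genes the summits of the replicates were 2 to 20 bp apart (median 13.5 bp). At the 11 uncalled genes they were 4 to 541 bp apart (median 94 bp), and 7 of the 11 were within 100 bp. The other 4 were rsp-7 (122 bp), rnp-5 (313 bp), prp-17 (492 bp) and hrpa-1 (541 bp).

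**Figure D4:**
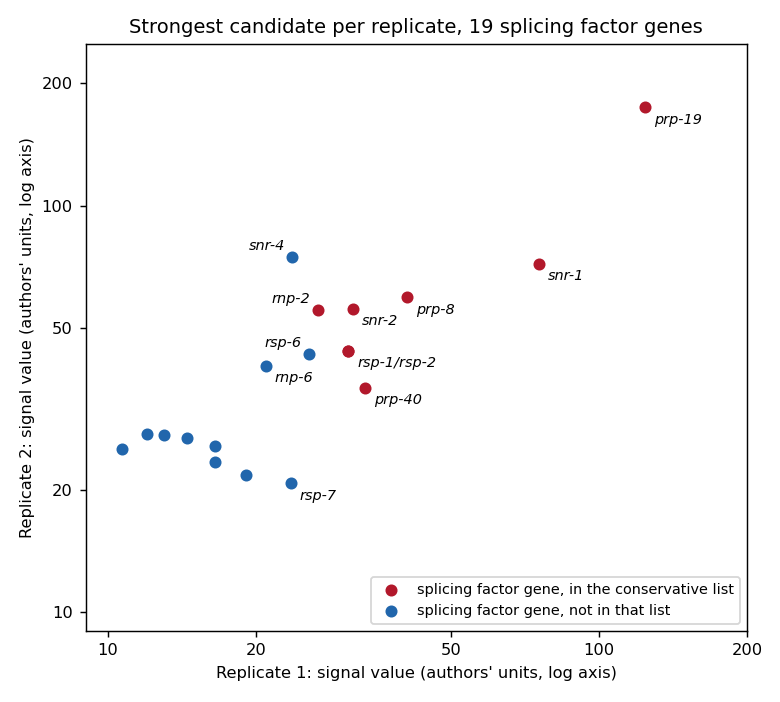
The strongest candidate of each of 19 splicing factor genes is drawn by its signal value in replicate 1 and replicate 2 (log axes, authors' units, each on its own scale). The called genes have 26.7 or more in replicate 1, with prp-19 at 124 and 175, while snr-4 has 74.8 in replicate 2 and 23.7 in replicate 1.

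Each of the 7 peaks lay between divergent gene starts, an arrangement that was noticed in these peaks and then counted. A partner starting within 2000 bp on the opposite strand, with the starts facing away from each other, was found for 26 of the 41 splicing factor genes (63.4%), against 27.8% of all genes. With a partner, 8 of 26 splicing factor genes were called (30.8%), against 8.81% of all genes with one. Without a partner, 0 of 15 were called, where counting error allows up to 21.8%, against 2.29% of all genes without one. All 8 called splicing factor genes had a partner, against 490 of all 820 called genes (59.8%). At 7 of 7 peaks at least 2 protein-coding starts were in reach, against 239 of 587 conservative peaks in promoter windows (40.7%). This counts starts in any orientation, and a peak with more starts in reach has more chances to be among the 7. The nearest start was that of a splicing factor gene at 4 of the 7, prp-8, rnp-2, prp-40 and rsp-1. The lists do not say which of the paired genes a peak belongs to. Summits lay 108 to 643 bp upstream of the called splicing factor genes (median 296 bp), against a median of 246 bp for all called genes. None of the 7 had a small RNA gene within 100 bp, where counting error allows up to 41.0%, against 68 of 587 promoter peaks (11.6%).

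Of the splicing factor genes, 10 start inside or within 500 bp downstream of another gene on the same strand, as operon genes do. Of these 10, 0 were called, where counting error allows up to 30.8%, against 3.10% of all such genes, while 8 of the other 31 were called (25.8%), against 4.37% of all other genes. First genes of runs were counted after the values were seen, whether or not the gene behind was itself called. For 3 of the 10, the first gene of the run was called, against 365 of 4165 such genes in all (8.76%). These were prp-38 behind plrg-1 (signal value 231 at plrg-1), prp-3 behind smrd-1 (119), and rnp-3, for the U2 protein B″, behind rnp-2 (82.5). The rnp-2 peak thus stands at the head of a run of 2 small nuclear RNA binding protein genes, 72 bp apart.

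Splicing genes with other names were counted for comparison from 2 lists. Of 55 other spliceosome genes 5 were called (9.09%) and of 24 other splicing regulators 2 (8.33%), against 4.11% of all genes. The strongest was mog-4, for a DEAH-box helicase, with a signal value of 262 and its summit 250 bp upstream, and 108 in replicate 1 and 156 in replicate 2. Further called genes were smu-2 (143), lsm-3 of the Lsm ring (118, nearer to Y62E10A.23), the helicase gene hel-1 (94.5) and swp-1 (71.4, nearer to rpl-23) in the first list, and among the regulators the Fox-1 family gene asd-1 (121). In the ranked list behind the conservative list, median strongest candidates were 42.1 for the 41 named-family genes, 34.6 for the other spliceosome genes and 35.6 for the other regulators. In the same order they were 21.0, 19.8 and 21.2 in replicate 1 and 27.4, 25.3 and 23.8 in replicate 2. Any candidate lay at 75.6%, 76.4% and 83.3% of these genes in the ranked list behind the conservative list. The shares called were 4.88%, 3.64% and 8.33% in the own list of replicate 1, and 9.76%, 7.27% and 4.17% in that of replicate 2.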

How the data were processed

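Deposited peak lists from immunoprecipitation of tagged TBX-37 were the input, for 2 biological replicates in 1 group. Per the labels the build is ce11 and chromatin was sheared by sonication. Peaks come from alignments of the precipitation and a control, per the deposited text notes. Which aligner and peak caller were used is not given in the sources used here.

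Signal values are a score that the authors' peak caller wrote, on a scale that differs between lists. The score column deposited by the authors is the IDR scaled to at most 1000, and the lowest in the conservative list is 830. For ranked candidates the IDR was taken from its deposited −log10 value, and the summit offset given by the authors set each position. The lists hold 1107 (conservative), 1042 (other series-wide), 538 (replicate 1) and 817 (replicate 2) peaks, from 66355, 41925, 39578 and 44219 ranked candidates. The conservative list leaves out 205 candidates that reach its lowest score. The 8 per-sample columns of its ranked list that no name ties to a replicate were not used. Depth is unknown, and exact Clopper-Pearson 95% intervals cover counting error only.

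Genes came from Ensembl release 115 (outermost start), sequences from RefSeq WBcel235. Calls are the authors' thresholds, and no test was run. Calculations used Python 3.11.15 with pandas 2.3.3 and scipy 1.17.1. The counting of summits in gene windows was tested on simulated summits, and the other steps were not. The genes and lists were chosen with earlier results of these data known. Named genes are every called gene, the 8 next strongest, those called in another list, those without a candidate, and called genes of the 2 other lists (1 of them and 1 peak sequence are not reported here), with the rest given by name and value. In these lists 4 of 83 symbols (sftb-3, sftb-4, sftb-5 and tiar-3) matched no gene. The word CGCNCCAC, divergent partners and first genes of runs were chosen after the data had been seen.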

Additional observations from a re-analysis of the deposited data

How the results depend on the processing

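Of 62 alternative values over 14 results, 50 were labelled close to the reported value, 12 moved and 0 reversed. These results are counts, medians and distances without a direction, so a reversal could not be seen. Counts were taken as close within a ratio of 1.5. The median summit distance was labelled close too, although it went from 296 to 527 bp without replicate 2. The values labelled close include motif counts that stayed at 0 or 1. The 8 called splicing factor genes became 5 in the other series-wide list, which kept prp-19, snr-1, prp-8 and rnp-2 and added snr-4, and 4 when a summit counted for its nearest start alone (prp-8, rnp-2, prp-40 and rsp-1), where all genes called were 781 (3.91%) and 563 (2.82%), against 820 (4.11%). Without one replicate, that is in the other replicate's own list, 2 to 4 were called. Only prp-19 and snr-1 were called without replicate 2, and prp-19, prp-8, snr-1 and snr-4 without replicate 1. Between these, all genes called ran from 387 without replicate 2 to 610 without replicate 1, and other splicing genes from 4 to 5, against 7. With an IDR of 0.05 or less, other splicing genes called were 11, and the splicing factor genes called were 10, with rsp-6 and snr-4 added, against 5.44% of all genes. Peaks with another start in reach were 4 of 5 in the other series-wide list, 3 of 4 without replicate 1 and 2 of 2 without replicate 2. Peaks at a small RNA gene were 1 of 5 in the other series-wide list, 1 of 4 without replicate 1 and 0 of 2 without replicate 2, the 1 being snr-4. The cause was not tested. A window of 500 bp gave 7 called splicing factor genes, without prp-19 (3.24% of all genes), and 2000 bp gave 9, with rsp-4 added (5.29%). The highest score alone gave 6 (3.44%), peak midpoints 8 (4.11%) and any transcript start 8 (4.44%). Divergent starts within 1000 or 3000 bp, chosen after seeing the data, held all 8 called genes among 23 or 29 with a partner. Of all genes with a partner within 1000 bp, 11.6% were called, against 8.81% within 2000 bp and a lower share within 3000 bp. No paired analysis was possible because there was 1 group and no contrast. Depth is unknown, so a missing candidate does not show absence of binding.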
